A study of Mus musculus with 6 samples.

Results

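The 134 probes described here are those of histones, high mobility group (HMG) proteins and chromatin regulators on the 6 arrays of a study of the pancreas of mouse embryos that lack Sox4. They were chosen by gene name from the 21888 probes of the table, with earlier results of these data known. Used were probes with 1 gene symbol that begins like the name of a histone or an Hmga, Hmgb or Hmgn protein. Symbols that begin like the Hdac, Smarc, Cbx, Chd, Brd, Ezh, Dnmt, Kat, Setd, Arid or Anp32 families were used too, together with Suz12. The 134 probes name 78 genes. A further 4 probes carried several symbols, at least 1 of them of this kind, and were not used.

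The study compared RNA of embryonic pancreas from Sox4 homozygous null mutants (Sox4-/-) with RNA of their wild-type littermates, both at embryonic day 12.5. Each of the 6 arrays carried the RNA of both genotypes, the wild type always in channel 1, and gives 1 log2 ratio per probe, so a bias of the channel and the genotype cannot be told apart. Per the label of arrays 1 and 2, the pancreases were pooled into 2 groups and the RNA was amplified, so the arrays may be repeats of 1 pool of each genotype, and p-values measure array-to-array spread only, possibly a technical one. Values above 0 are read as more RNA in the knockout; this direction is likely, from the order of channels and the titles, but neither it nor the dyes are stated. The mutants carry a published Sox4 knock-out present in the whole embryo. In whole pancreas, fewer cells of a type and less RNA per cell cannot be told apart.

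DNA in the nucleus is wound around histones. Replication-dependent histones are made in S phase from clustered genes whose mRNAs end in a stem-loop in place of a poly(A) tail. Many variant histones are made throughout the cell cycle from ordinary polyadenylated mRNAs, and others belong to the germ line. Acetyltransferases, deacetylases and methyltransferases mark histone tails, chromobox and bromodomain proteins bind those marks, and SWI/SNF and CHD complexes move nucleosomes with the energy of ATP. In the developing pancreas such regulators are known to affect the choice between liver and pancreas fates and the number of endocrine progenitors. Sox4 itself is an HMG-box transcription factor, but it binds a defined sequence, unlike the Hmgb proteins, which bend DNA with little sequence preference.

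Arrays 1 and 2 carry a longer label than arrays 3 to 6, and these sets also differ in their values. Arrays 1 and 2 correlated with each other across all probes, with a Spearman's rho of 0.52, arrays 3 to 6 among themselves with 0.44 to 0.58, and arrays of different sets with 0.06 to 0.32; probes are not independent replicates. Both Sox4 probes stayed inside the threshold, with means of -0.03 ± 0.25 and -0.09 ± 0.13 (SD, n = 6 arrays) and limma adjusted p of 0.892 and 0.446, and their place relative to the deletion is unknown, so the genotypes below are those of the labels. Of 8 measured liver marker genes, 6 had a probe past the threshold under 0 and none had one above 0, with a median over probes between -1.01 and -0.51 on the 6 arrays. Of 11 measured S phase and proliferation genes, Mki67 (1.26 at its called probe) and Cdc6 (0.79) were past it above 0. At the Mki67 probe 66.7% of the ratios were quotients of whole numbers up to 20, the form that very small whole-number signals would give. The median of the 11 gene means was -0.0, and none of these genes was past the threshold under 0. Of 6 pancreatic epithelium genes Cpa1 was past it under 0, and of 8 endocrine genes Neurog3 was past it under 0 and Ins2 above 0. In the lists of mesenchyme, erythroid, endothelial, leukocyte and neuronal markers, 4 genes were past it above 0 and 2 under 0, of 23 measured. These were 17.4% and 8.7%. Of all 10818 genes, 3.25% had a probe past it above 0 and 5.0% under 0, the shares to set beside every marker list here. A gene with more probes has more chances of a call, and the 6 erythroid genes had 54 probes. Ratios carry no level, so the presence of these cell types could not be checked. The part of any of these cells in the results below was not tested.

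Promoter windows were searched for sequence motifs, and 4 that hold one are printed. RefSeq windows of 300 bases, from 250 before the start of transcription (GRCm38.p6), were held for 66 of the 78 genes. Capitals mark AACAAAG, a sequence that Sox4 binds, and CCAAT, the binding sequence of the NF-Y factor that is frequent in histone promoters, each searched on both strands, so that ATTGG is CCAAT on the other strand. The first window is that of a histone H2B gene with 1 AACAAAG and 4 CCAAT matches, the next that of the gene with the largest called ratio, and the last 2 are the alternative starts of Cbx5, whose probes disagreed.
H2bu2, chr11:58948661-58948960, + strand: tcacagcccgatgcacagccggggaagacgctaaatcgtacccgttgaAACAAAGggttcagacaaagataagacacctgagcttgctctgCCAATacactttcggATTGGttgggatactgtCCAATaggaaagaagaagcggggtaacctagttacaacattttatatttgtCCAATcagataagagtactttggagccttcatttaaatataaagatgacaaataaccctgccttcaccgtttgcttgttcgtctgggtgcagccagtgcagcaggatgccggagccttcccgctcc
Anp32a, chr9:62341093-62341392, + strand: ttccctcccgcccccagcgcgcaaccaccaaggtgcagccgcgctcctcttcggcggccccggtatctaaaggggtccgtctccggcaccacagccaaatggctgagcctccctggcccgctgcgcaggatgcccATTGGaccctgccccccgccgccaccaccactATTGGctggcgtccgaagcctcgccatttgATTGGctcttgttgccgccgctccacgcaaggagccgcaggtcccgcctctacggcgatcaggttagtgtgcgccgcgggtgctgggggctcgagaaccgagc
Cbx5, chr15:103215303-103215602, - strand: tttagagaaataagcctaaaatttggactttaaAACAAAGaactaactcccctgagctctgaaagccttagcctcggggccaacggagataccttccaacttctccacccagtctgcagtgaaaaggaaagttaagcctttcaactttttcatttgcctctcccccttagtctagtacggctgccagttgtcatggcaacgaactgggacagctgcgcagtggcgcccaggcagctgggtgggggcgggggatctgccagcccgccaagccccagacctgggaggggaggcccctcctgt
Cbx5, chr15:103239803-103240102, - strand: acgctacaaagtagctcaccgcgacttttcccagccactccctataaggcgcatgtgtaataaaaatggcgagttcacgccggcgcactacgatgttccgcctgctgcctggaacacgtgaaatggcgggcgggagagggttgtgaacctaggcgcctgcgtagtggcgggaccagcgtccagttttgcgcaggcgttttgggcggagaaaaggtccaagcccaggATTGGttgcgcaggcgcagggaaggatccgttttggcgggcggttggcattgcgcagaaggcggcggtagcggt
Of the other called genes with windows, Kat8 had CCAAT matches in both of its windows, and the window of Arid1b and the 3 windows of Dnmt3a had 0 matches of any motif searched.
AACAAAG stood in a window of 12 of the 66 genes, or 18.2%, against 6.68% of the 27025 genes with windows. These 12 were Brd3, Cbx3, Cbx5, H1f7, H2al1m, H2al2a, H2bu2, H3c4, Hmgb4, Hmgb4os, Setd7 and Smarcad1. Hmgb4os is the opposite-strand transcript of Hmgb4 and was counted separately. The mean ratios of the 12 over probes were above 0 for 6 genes and under 0 for 6. Their median was -0.02, against 0.04 for the genes without a match. Counted by window, AACAAAG stood in 14.8% of the 81 windows of the 66 genes, 4.44% of those of tested genes and 5.85% of all. The shorter sequence AACAAT stood in 6.17% of the 81 windows, against 7.51% of those of tested genes and 10.7% of all. CCAAT stood in 44.4%, against 37.8% and 37.4%. The windows of the 66 genes had a median GC content of 60.3%, against 52.7% for all windows. A match is a description of the sequence and shows no binding.

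Of the 134 probes, 133 had a value on at least 4 arrays and were tested. With limma, 10 of them were past an adjusted p of 0.05, or 7.52%, against 5.49% of the 21247 tested probes of the table. Above 0 there were 9, or 6.77%, against 1.96% of all probes, and under 0 there was 1, or 0.752%, against 3.53%. The called probes above 0 belonged to Anp32a, Dnmt3a, Arid1b, Smarce1, Chd3, H2bu2, Cbx5, Arid2 and Kat8, and the probe under 0 was another probe of Cbx5. At an unadjusted p under 0.05 there were 23 above 0 and 13 under 0, where all probes had shares of 13.6% and 14.0%. All measured arrays lay above 0 for 17 of them, against 10.2% of all probes, and under 0 for 11, against 12.3%. The median of the 133 means was 0.03, the same as that of all probes. The chromatin probes thus had the same middle as other probes, and a mean beyond 0.5 in size was found for 8.27% of them against 15.3% of all. The split of 9 called probes above 0 and 1 under 0 moved with the scaling. Without centring, which moved the median of all probes from 0.026 to 0.129, 11 chromatin probes were past the threshold above 0 and 0 under 0, and of all called probes 67.5% were above 0 against 35.7% with centring. With equal spread on every array the split was 9 above 0 and 6 under 0. Over all probes it was then 595 and 1191, so that 33.3% of all called probes were above 0. With quantile normalization the chromatin split was 11 and 6, and with array weights 10 and 7. The splits of all probes in these last settings are not given here.

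The number of calls depended on which array was left out. Without array 1, 4 or 6, limma called 0 chromatin probes, with 33, 32 and 30 at an unadjusted p under 0.05, against 36 with all arrays. Without array 3 or array 5 it called 1, the Anp32a probe, and without array 2 it called 7. Over all probes, 1072 were called without array 2, and 18, 45, 11, 10 and 13 without array 1, 3, 4, 5 or 6, against 1166 with all. Array 2 had the widest spread of values (median absolute deviation 0.3675, against 0.182 to 0.298 on the others) and the lowest limma array weight (0.3671); the part of this in the calls was not tested. The means moved less, between 0.90 and 1.02 for Anp32a and between 0.46 and 0.60 for Arid1b over these 6 fits.

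**Figure D1:**
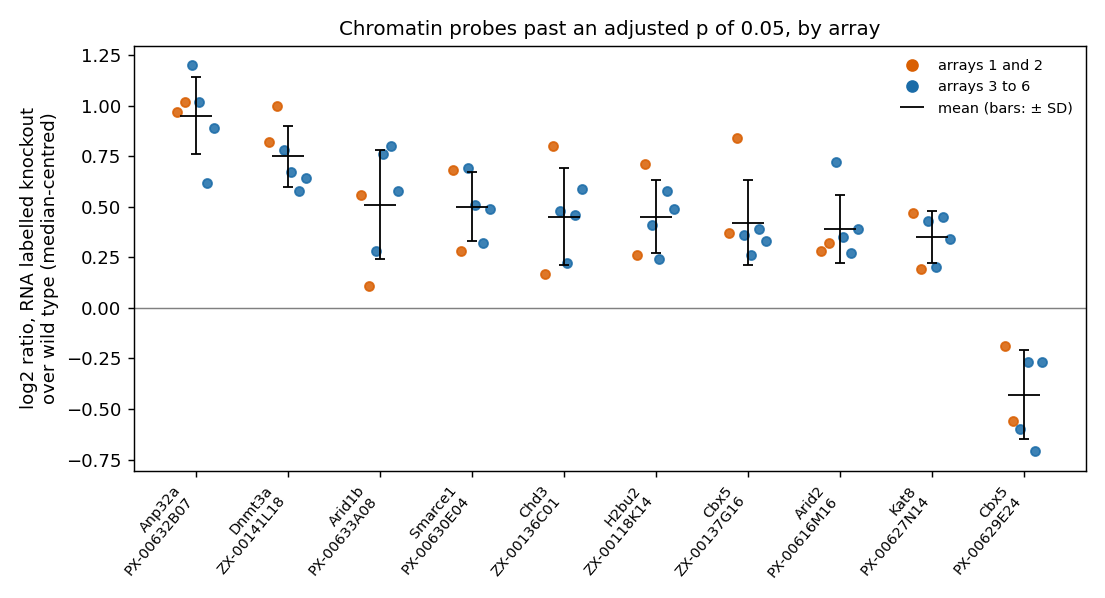
Log2 ratio of the 10 chromatin probes past an adjusted p of 0.05 on each array (points, coloured by array set), with mean and SD (bars). All 6 arrays lie above 0 for 9 probes and under 0 for the Cbx5 probe at the right; Anp32a and Dnmt3a stand highest, at 0.95 and 0.75.

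Among the histone chaperone and acetylation genes, Anp32a rose. Anp32a encodes a leucine-rich acidic protein that masks histone tails from acetyltransferases. Its only probe, PX-00632B07, was at 0.97, 1.02, 1.20, 1.02, 0.62 and 0.89 on arrays 1 to 6, a mean of 0.95 ± 0.19 (SD, n = 6) or 1.94-fold, with a limma adjusted p of 0.0126. No array came near 0, both array sets had similar means (0.99 and 0.93), and none of its ratios equalled a quotient of whole numbers up to 20, the form that very small whole-number signals would give. It stayed past the threshold without array 2, 3 or 5, but not without array 1, 4 or 6, with adjusted p up to 0.0656. Its relatives were near 0: Anp32b, also a histone-binding acidic protein, had a mean of 0.00 ± 0.26, and the 2 probes of Anp32e, which removes the histone variant H2A.Z, had means of -0.10 and -0.06.

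Of the acetyltransferases, Kat8 had a called probe. Kat8 encodes the enzyme that acetylates histone H4 in the MSL and NSL complexes. Its probe PX-00627N14 lay between 0.19 and 0.47 with a median of 0.38 and a mean of 0.35 ± 0.13 (n = 6; adjusted p 0.046). All 6 arrays were above 0. The other 3 probes of the gene had means of 0.19, 0.07 and -0.06 and lay on both sides of 0 across arrays, so the probes of Kat8 disagreed. Kat2a, the acetyltransferase of the SAGA complex, was at 0.34 ± 0.31 with an adjusted p of 0.13. Deacetylases had only 2 probes: Hdac1, of the class I enzymes, was at 0.12 ± 0.20 (adjusted p 0.43), and that of Hdac8 at 0.06. Bromodomain proteins, which bind acetylated histones, had no limma call among 8 probes, where 5.49% of all probes were called. At an unadjusted p under 0.05 there were 2. The probe with the smallest p was Brd3 PX-00632M20, between -0.13 and 0.61 with a mean of 0.27 ± 0.24 (adjusted p 0.153). All 4 Brd3 probes had means above 0, from 0.12 to 0.33.

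**Figure D2:**
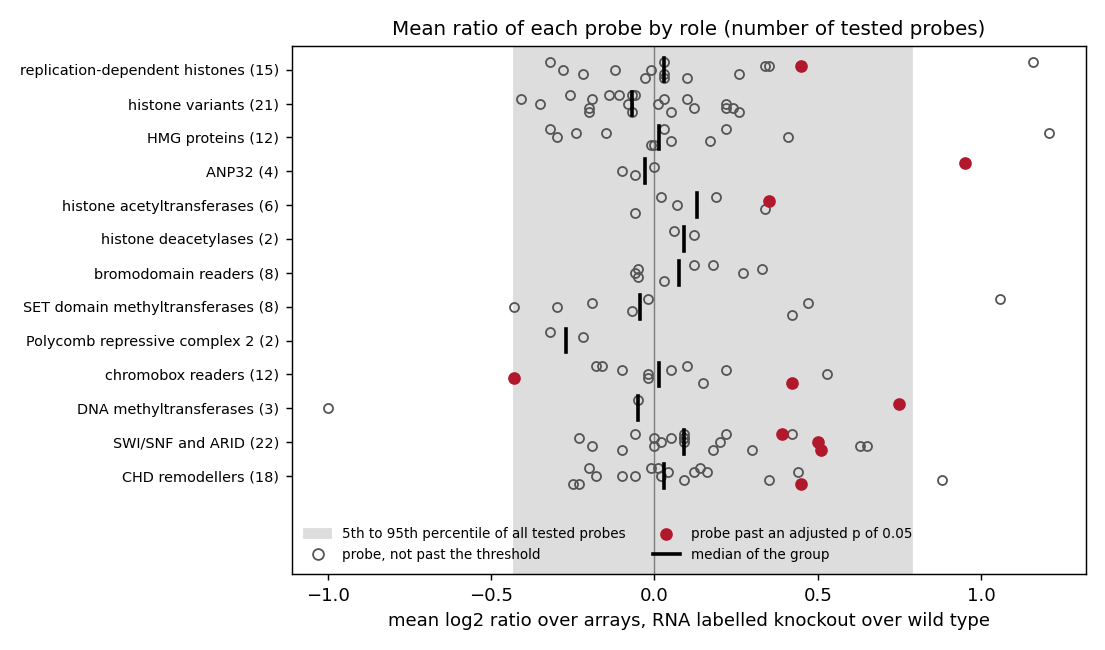
Mean log2 ratio of each tested chromatin probe by the role of its gene (open circles, not past the threshold; filled, past it), with the median of each group and the range from the 5th to the 95th percentile of all tested probes, -0.43 to 0.79 (grey). Group medians lie between -0.27 and 0.13, and 5 probes lie above and 3 below the grey range.

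DNA methyltransferases had 3 probes, 1 for each of 3 genes. Dnmt3a, which sets new DNA methylation marks, rose. Its probe ZX-00141L18 lay between 0.58 and 1.00 with a median of 0.72, and its mean was 0.75 ± 0.15 (SD, n = 6) or 1.68-fold, with a limma adjusted p of 0.0173. All 6 arrays were above 0, with arrays 1 and 2 the highest (0.82 and 1.00). It stayed called without array 2 but not without any of the other 5, where its adjusted p reached 0.0684. Dnmt1, which copies methylation after replication, was measured on 4 arrays, at 0.07, -0.71, -0.01 and -3.37, with an SD of 1.62 and an adjusted p of 0.363; the value on array 5 stands apart. Dnmt3l, a cofactor of Dnmt3a without enzyme activity, was at -0.05 ± 0.29 (n = 5).

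The SWI/SNF and ARID group was formed by gene name. It holds subunits of SWI/SNF complexes, which remodel nucleosomes at promoters and enhancers, and other proteins such as Arid4b, Arid5b, Smarca5 and Smarcad1. Of its 22 tested probes, 3 were past the threshold, all above 0, or 13.6% against 1.96% of all probes. All 3 have names that begin with PX, and 2.36% of all such probes were called above 0. Means lay above 0 for 18 of 22, against 53.7% of all means. These probes are of only 13 genes, and the 18 include both Smarcb1 probes, at 0.00. Smarce1, a DNA-binding core subunit, had its probe PX-00630E04 between 0.28 and 0.69, with a median of 0.50, a mean of 0.50 ± 0.17 (n = 6) and an adjusted p of 0.0339. Its other probe was measured on 4 arrays, from -0.47 to 1.75, with a mean of 0.63 ± 0.91. This second probe was not called (limma adjusted p 0.322), with 3 arrays above 0 and 1 under 0. Arid1b, a subunit of the BAF form of the complex, had PX-00633A08 between 0.11 and 0.80 with a mean of 0.51 ± 0.27 (adjusted p 0.0477), and 50% of its ratios were quotients of small whole numbers. Arid2, which marks the PBAF form, had PX-00616M16 between 0.27 and 0.72 with a mean of 0.39 ± 0.17 (adjusted p 0.0467). Every array was above 0 for each of these called probes.

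The other genes of this group were mostly close to 0. Both probes of Smarcc2, a scaffold subunit, had all 6 arrays above 0, at means of 0.30 ± 0.14 and 0.22 ± 0.09, with adjusted p of 0.063 and 0.0951. Smarcb1, a core subunit, was at 0.00 at both probes, with SDs of 0.38 and 0.66, and Arid1a, the counterpart of Arid1b, at -0.23 ± 0.24 (adjusted p 0.2). The Smarca2 probes, for an ATPase of the complex, disagreed at 0.42, 0.09 and -0.19. At the probe at 0.42, 66.7% of the ratios were quotients of small whole numbers. The one chromatin probe that was not tested was an Arid4b probe with values of 1.08, 1.13 and 1.39 on 3 arrays; the other Arid4b probe was at 0.09.

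CHD remodellers had 1 call among 18 tested probes, or 5.56%, against 5.49% of all probes. Chd3, an ATPase of the NuRD complex, had its only probe ZX-00136C01 between 0.17 and 0.80 with a median of 0.47, a mean of 0.45 ± 0.24 (n = 6) and an adjusted p of 0.0499. All arrays were above 0, but no fit that left out an array kept the call, with adjusted p from 0.0589 to 0.131. Chd4, the other main NuRD ATPase, was at 0.14 ± 0.47 (n = 5), with 2 arrays above 0 and 3 under 0. The 4 Chd1 probes, none of them called, had means of 0.44, 0.12, 0.09 and -0.18.

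Cbx5 was the one chromatin gene with probes past the threshold on both sides of 0; in the whole table there were 5 such genes among 888 with a called probe. Cbx5 encodes heterochromatin protein 1 alpha, which binds methylated histone H3. Its probe ZX-00137G16 lay between 0.26 and 0.84, with a mean of 0.42 ± 0.21 and an adjusted p of 0.0491. The probe PX-00629E24 lay between -0.71 and -0.19, with a mean of -0.43 ± 0.22 and an adjusted p of 0.0497. All 6 arrays were above 0 for one and under 0 for the other. The pair was picked for calls on both sides of 0, so this gap adds nothing to the calls. The remaining 3 probes were at -0.02, -0.02 and 0.10. The probes come from different cDNA clones, and which transcript forms each detects is unknown. Their calls are close to the threshold: robust eBayes ended both (adjusted p 0.052 and 0.0512), and the call under 0 also ended without centring, where the mean was -0.33. Cbx3, for heterochromatin protein 1 gamma, had means of 0.53 ± 0.60 and 0.15 ± 0.31, neither called. At the first of these probes 66.7% of the ratios were quotients of small whole numbers.

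**Figure D3:**
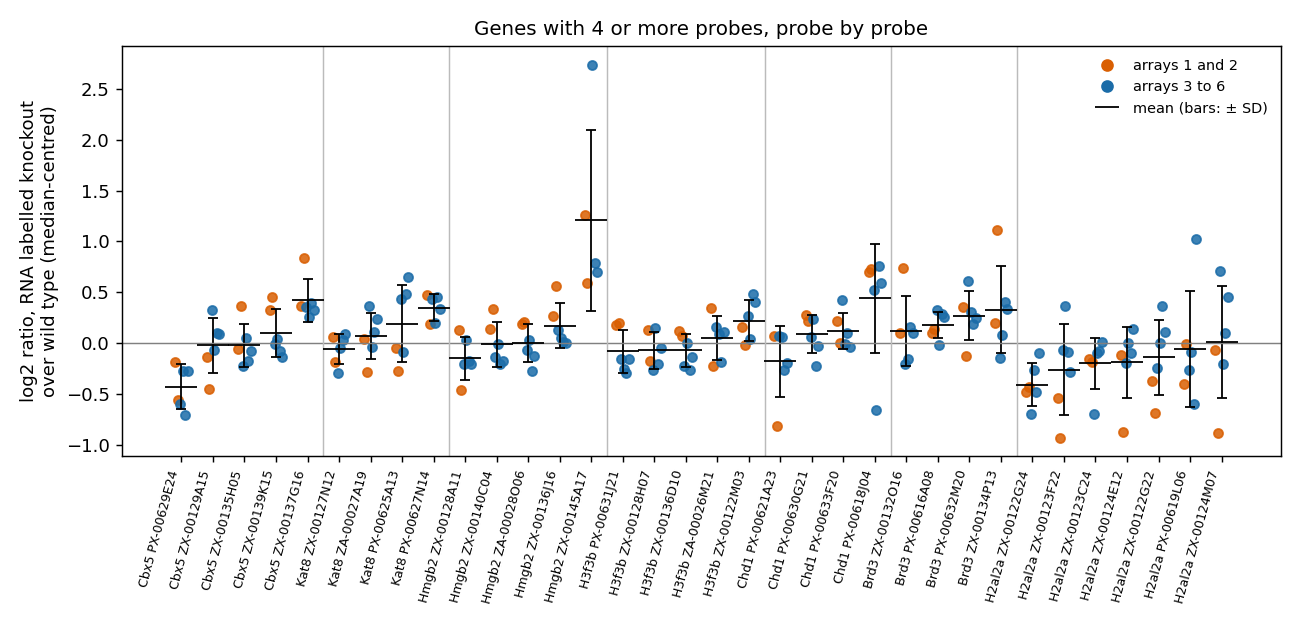
Log2 ratio per array (points) with mean and SD (bars) for every tested probe of the 7 chromatin genes with 4 or more probes. The Cbx5 probes run from -0.43 to 0.42 and those of Hmgb2 from -0.15 to 1.21, whereas all 4 Brd3 probes have means above 0 and 6 of 7 H2al2a probes means under 0.

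In the histones themselves 1 of 36 tested probes was past the threshold, where 5.49% of all tested probes were. H2bu2, a histone H2B gene of the small cluster on chromosome 11 whose promoter window is printed above, had its probe ZX-00118K14 between 0.24 and 0.71 with a median of 0.45, a mean of 0.45 ± 0.18 (n = 6) and an adjusted p of 0.0406. Every array was above 0. H2aw, the H2A gene of the same cluster, was at 0.03 ± 0.12. The 13 probes of cluster histones on chromosome 13 had no limma call, with 3 above 0 and 2 under 0 at an unadjusted p under 0.05, and means from -0.32 to 1.16, 7 above 0 and 6 under 0. The 3 probes of H2bc4, an H2B gene there, were all under 0, at -0.32, -0.22 and -0.12, with the smallest adjusted p at 0.0624. The highest was H4c8, an H4 gene, with 0.06, 1.62, 1.56, 1.02, 0.40 and 2.32 on arrays 1 to 6 and an adjusted p of 0.068; 66.7% of its ratios were quotients of small whole numbers. H4 genes encode the same protein and have similar coding sequences, so a cDNA probe can detect several of them. The label of arrays 1 and 2 describes cDNA synthesis primed with oligo-dT, and what share of stem-loop histone mRNA it captured was not tested.

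Variant histones had no limma call among 21 tested probes, with 1 above 0 and 2 under 0 at an unadjusted p under 0.05. The shares of all tested probes were 5.49% called, and 13.6% above 0 and 14.0% under 0 at the unadjusted p. Most of these probes are of germ-line histones: H2al2a, H2al1m, H2al3, H2ap, H2bfm, H2bl1 and H1f7. With Hmgb4 and Dnmt3l, the germ-line genes had 16 probes, no limma call and a median of -0.12. H3f3b, one of the genes for the replacement histone H3.3, had 5 probes with means between -0.08 and 0.22, on both sides of 0. H2ax, the variant phosphorylated at DNA breaks, was at 0.12 ± 0.44 (adjusted p 0.671), and H2az2, for a form of H2A.Z, at 0.24 ± 0.27. The probe with the smallest p was H2al2a ZX-00122G24, for a histone of spermatids, between -0.70 and -0.10 with a mean of -0.41 ± 0.21 (adjusted p 0.0519). Each of the 6 arrays was under 0 at this probe, which passed with equal spread on every array (adjusted p 0.0375). The other 6 H2al2a probes were between -0.26 and 0.01, each with arrays on both sides of 0.

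Genes with HMG names had no limma call among 12 tested probes, where 5.49% of all probes were called. One of the 12 was of Hmgb4os, the opposite-strand transcript of Hmgb4. At an unadjusted p under 0.05, 1 was above 0 and 3 under 0, where all probes had shares of 13.6% and 14.0%. Hmgb2, a DNA-bending protein of dividing cells, had 4 probes between -0.15 and 0.17 and another, ZX-00145A17, at 1.21 ± 0.89 (n = 5; adjusted p 0.0901), whose array 4 stood at 2.74. Hmgn3, a nucleosome-binding protein known in beta cells, was at -0.30 ± 0.19 at ZA-00026O19 (adjusted p 0.0942), with -0.05 on arrays 1 and 2 and -0.42 on arrays 3 to 6, and at 0.05 at its other probe. Hmgn2 was at -0.24 ± 0.19 (adjusted p 0.139), and Hmgn1 at 0.41 ± 1.78, spread from -1.24 to 3.44 over 5 arrays. Of the Hmgn1 ratios 60% were quotients of small whole numbers.

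SET domain methyltransferases, with 8 probes, and the Polycomb genes Ezh1 and Suz12 had no limma call, where 5.49% of all probes were called. At an unadjusted p under 0.05 there were 2 SET domain probes above 0 and 2 under 0, and both Polycomb probes under 0. Ezh1, a catalytic subunit of the Polycomb repressive complex that methylates histone H3, had all 6 arrays under 0, between -0.57 and -0.19, with a mean of -0.32 ± 0.13 and an adjusted p of 0.0552. Suz12, its core partner, also had all 6 arrays under 0, with a mean of -0.22 ± 0.14 and an adjusted p of 0.121. Of all tested probes, 12.3% had every measured array under 0. Setd7, a lysine methyltransferase studied in pancreatic islets, lay between -0.95 and -0.17 with a mean of -0.43 ± 0.27 (adjusted p 0.069), again with all 6 arrays under 0. With equal spread on every array, Ezh1 and Setd7 passed, at adjusted p of 0.0347 and 0.032. Setd3, which methylates actin, had probes at 1.06 ± 0.90 and 0.47 ± 1.00, and 83.3% and 66.7% of their ratios were quotients of small whole numbers.

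The array sets differed for many of these probes. Means over arrays 1 and 2 and over arrays 3 to 6 had the same sign for 78 of the 133 chromatin probes, or 58.6%, and for 58.6% of all probes. Their Spearman's rho was 0.36 across the chromatin probes and 0.21 across all probes, which share arrays and are not independent. All 10 called probes had the same sign in both sets, which had to be so because every array of each lay on the same side of 0. With the array set as a term, so that both sets weigh equally, limma called 5 chromatin probes, 4 above 0 and 1 under 0. Only 3 of these were among the 10: Anp32a (adjusted p 0.0308), Dnmt3a (0.0253) and Cbx5 ZX-00137G16 (0.0493). The calls of Smarce1, H2bu2, Kat8, Arid2, Arid1b, Chd3 and Cbx5 PX-00629E24 ended, and Setd6 ZX-00133K04 (0.52, adjusted p 0.0431) and H2ap ZX-00121B10 (-0.41, adjusted p 0.0482) were called instead. On arrays 3 to 6 alone limma called 0, with 36 at an unadjusted p under 0.05.

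**Figure D4:**
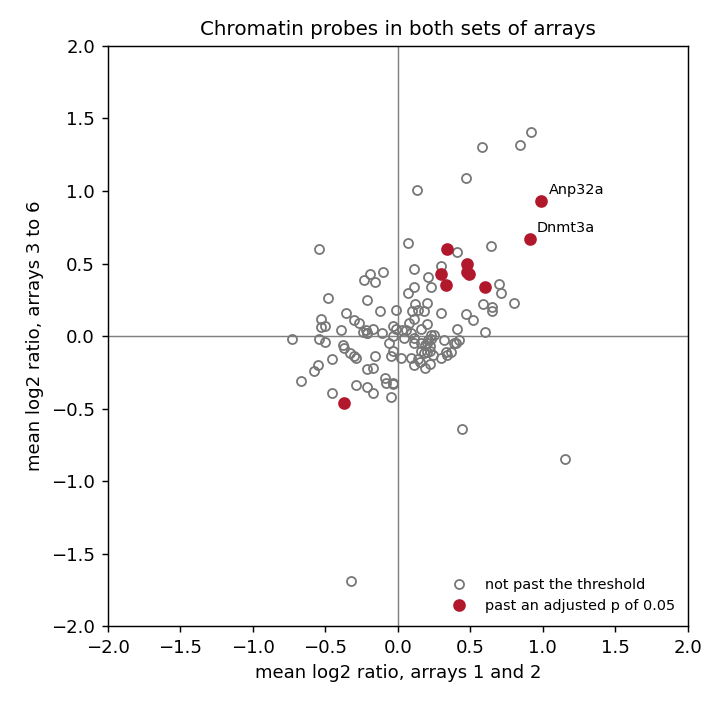
Mean log2 ratio on arrays 1 and 2 (horizontal) against arrays 3 to 6 (vertical) for the 133 tested chromatin probes, with the 10 called ones filled. The sets share the sign for 78 probes. All called probes lie at the upper right or lower left, as they must, because every array of each had the same sign.

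Probes also differ by their source. Those with names that begin with PX had a median of 0.09 over the whole table, and 2.36% of them were called above 0, against a median of -0.01 and 1.51% for those that begin with ZX. Of the 10 called chromatin probes, 6 were PX and 4 ZX. Among chromatin probes 5 of 42 PX and 4 of 75 ZX were called above 0, or 11.9% and 5.33%, against 2.36% and 1.51% of all probes of these sources. Of the 16 chromatin probes that begin with ZA, limma called 0, with 1 above 0 and 3 under 0 at an unadjusted p under 0.05, and their median was -0.04; of all ZA probes 2.65% were called above 0. The median of the other probes on the source plate of each called probe was between -0.10 and 0.09, and that of the wells next to it between -0.18 and 0.33. The wells next to Arid1b (0.33), H2bu2 (0.30) and Kat8 (0.26) had the highest medians.

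Chromatin genes outside the naming rule were read from 4 lists. Of 57 measured genes, 2 had a probe past the threshold above 0, or 3.51%, and 3 under 0, or 5.26%, against 3.25% and 5.00% of all 10818 genes and against 9 and 1 of the 78 chromatin genes above. Actl6a, an actin-related subunit of SWI/SNF complexes, had a mean of 0.45 ± 0.09 (adjusted p 0.0283), and its other probe was at 1.30 ± 1.06 (n = 4). At that other probe 75% of the ratios were quotients of small whole numbers. Uhrf1, which brings Dnmt1 to replicated DNA, was at 0.53 ± 0.24 (adjusted p 0.039), with its other probes at 0.22 and 0.13. Under 0, Kmt5a, which methylates histone H4, was at -0.39 ± 0.09 (adjusted p 0.0334), with other probes at 0.47 and 0.17. Kmt2e was at -0.34 ± 0.10 (adjusted p 0.0437), with others at -0.09 and 0.06, and Npm1, a nucleolar histone chaperone, at -0.41 ± 0.19 (adjusted p 0.0472), with its other probe at 0.17. Of the 8 Polycomb partner genes and the 11 genes of acetylation and corepressor complexes, limma called none; at an unadjusted p under 0.05 the former had 2 probes above 0 and 2 under 0, and the latter 1 and 2.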

How the data were processed

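The authors' deposited table holds log2 ratios of the 2 channels for 21888 probes on 6 spotted arrays; its base follows from a ceiling at 16.61, the log2 of 1e+05. What the submitters did before deposit (background correction, normalization, dye assignment) is not stated in labels or headers, and only 6 arrays limit the precision. The deposited medians lay between -0.007 and 0.198 per array. Values at the ceiling (40 to 257 per array) were treated as missing, the median of every array was subtracted, and the 21247 probes with at least 4 values were kept. Differences from 0 were tested two-sided with limma 3.58.1 (lmFit, eBayes, intercept only) in R 4.3.3, adjusted by Benjamini-Hochberg over all tested probes, at a threshold of 0.05. The fit was tested on simulated data. Figures were drawn with matplotlib 3.10.9.

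The platform annotation gave 1 symbol for 18388 probes, several for 66 and none for 3434; all 134 chromatin probes matched RefSeq by Entrez ID. Promoter windows are RefSeq's. A ratio counts as a quotient of whole numbers up to 20 within 6e-04 in log2.

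The members and lists were chosen with earlier results of these data known. Named were every chromatin probe past the threshold with the other probes of its gene, the probe with the smallest p in each role group without a call, 31 fixed genes, of which 19 were measured and the others are not analysed here, and up to 3 called probes per list outside the rule. Others were named after their values were seen: Hdac8, Anp32e, the further Brd3 probes, Dnmt3l, Smarcc2, Smarca2, Setd6, H2ap, Arid4b, Chd1, H2aw, H2bc4, H4c8, H2az2, the further H2al2a probes, Setd3, the further probes of the listed genes, and the marker genes. Alternatives were other centring, scaling, filters, weights, shrinkage and array subsets.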

Additional observations from a re-analysis of the deposited data

Results flagged for a closer look

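For 5 of the 53 named probes, 1 array was separated from the rest by most of the spread; chance gives this for about 1 in 20. The called Arid2 probe PX-00616M16 reached 0.72 on array 3, while the other arrays lay between 0.27 and 0.39. The Cbx5 probe ZX-00137G16 was at 0.84 on array 2, against 0.26 to 0.39. The Arid1b probe PX-00631G06, which was not called, was at 2.74 on array 3, against 0.06 to 0.21. The Hmgn1 probe ZX-00134D22 was at 3.44 on array 6, against -1.24 to 0.10. The Npm1 probe ZX-00119G22 was at -0.03 on array 4, against -0.55 to -0.43. The Arid2 and Cbx5 means without these arrays were 0.32 and 0.34.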

How the results depend on the processing

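In 6 fits without 1 array and 11 other alternatives per probe, no called chromatin probe changed sign. Every array of these probes lay on the same side of 0, so most of these fits could give no other sign. Called probes numbered 1166 in the whole table and 10 among the chromatin probes. Leaving out 1 array gave 10 to 1072 and 0 to 7. Arrays 3 to 6 alone gave 13 and 0, and the array set as a term 695 and 5. Array weights gave 2402 and 17, and 1 mean per gene gave 630 and 6 genes. Equal spread on every array gave 1786 over the table, quantile normalization 17 chromatin probes and the ceiling kept as a value 6. The other counts stayed within 1.5 times. Of 170 refitted values of the 10 called chromatin probes, 89 stayed past the threshold and 81 did not; of 628 of the named probes that were not called, 614 stayed so. The cause of these differences was not tested. Signal over background is unknown, so low intensities could not be removed directly. No paired analysis was possible because there is 1 group.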
